A study of Mus musculus with 12 samples.

Results

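The Wnt and beta-catenin gene set examined here held 38 genes chosen by their place in the pathway, with earlier results of these data known. They were the machinery that carries the beta-catenin signal, Smarca4 (Brg1), a chromatin remodelling ATPase described as a partner of telomerase reverse transcriptase, and genes known as targets of the pathway. A gene was represented by the probe set annotated with its symbol alone, and the rule for membership uses no measured value. Of the 38 genes, 36 had such a probe set, of 19938 genes with a probe set of their own on the array. Tcf7 and T were not analysed here.

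Wnt proteins are secreted growth factors that are lipidated by Porcn, carried to the cell surface by Wls and bound by Frizzled receptors with Lrp co-receptors. Without a signal a complex of Axin, Apc and the kinase Gsk3b marks beta-catenin (Ctnnb1) for destruction. With a signal beta-catenin accumulates, enters the nucleus and turns TCF and LEF factors into activators of target genes, several of which feed back to dampen the signal. In fibroblasts and other mesenchyme the pathway takes part in growth, patterning and matrix production. A role of Tert as a cofactor of beta-catenin at such targets, independent of telomeres, has been proposed and disputed, and the comparison of fibroblasts without Tert with fibroblasts without the telomerase RNA bears on it.

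The cells were primary fibroblasts of male C57BL/6J mouse embryos at stage E12.5 to 14.5 and grown to passage 5 without treatment. Gene expression was read on 12 Affymetrix arrays, 1 for each culture. Triplicate cultures were labelled mTERT KO (first generation, G1, without the reverse transcriptase), mTERT WT, mTR KO (G1, without the telomerase RNA) and mTR WT. The genes were deleted in the germ line, so in every cell and from the start of development, and the series' design text describes the wild types as littermates. All values are log2 signals on the common scale set by the authors. A difference is the knockout mean less the wild-type mean except where another contrast is named, its error (±) is the standard error from limma on all 12 arrays, and its adjusted p is Benjamini-Hochberg over all 28853 probe sets. An array signal is that of a whole culture, so fewer cells that express a gene and less RNA per cell cannot be told apart.

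The deleted genes were read first. Tert gave 4.99, 4.83 and 4.75 in mTERT KO cultures 1 to 3, against 5.51 to 5.74 in mTERT WT cultures, and 5.66 to 5.80 in the 6 mTR cultures. It fell by 0.79 ± 0.08 in mTERT KO cultures (limma, adjusted p = 0.0352). The difference stayed between −0.87 and −0.74 as each of the 12 arrays was left out, but the call held in 2 of those fits, without mTERT KO 1 and without mTERT WT 3. Terc, the RNA gene, gave 4.50 to 4.73 in mTR KO cultures and 4.65 to 4.94 in mTR WT cultures, below the background level used here and therefore no check of the mTR labels. That level was set in each array from 1035 probe sets of olfactory receptors, as their 95th percentile, and lay between 4.93 and 5.09. Of the 11 measured fibroblast markers 11 lay above it in every array. Macrophage markers did so too for 15 of 16, while 6 of 8 endothelial markers lay above it in no array.

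Of the 36 pathway genes 24 were above background in all 12 arrays, 7 in some arrays and 5 in none. The 5 were the feedback genes Notum, Rnf43, Dkk4 and Sp5 and the homeobox gene Cdx2. Kremen2 and Tnfrsf19 passed the level in 2 arrays each, Axin2 in 5, Lef1 in 9, Dkk1 and Lgr5 in 10 and Pygo1 in 11. For the genes near or under this level a fall has little room to appear, and a rise would show only if it went well above the level.

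Promoter windows of RefSeq (build GRCm38.p6) covered 22 of the 36 genes. The 250 bases before each gene start were searched on both strands for the TCF motif letters CTTTGAT and CTTTGAA. At least 1 of them stood in 7.48% of 32851 such windows of all genes and in 3 of 31 windows of the set, which belonged to Sp5, Dkk1 and Tnfrsf19. The windows of Sp5 and Dkk1 are shown as feedback targets that hold the letters. Those of Axin2, the usual readout of the pathway, and of Nkd2, the gene that set the lines apart most clearly below, are shown because they hold none in this window. Motif letters are in capitals and all sequences run 5′ to 3′ on the strand of the gene.
Sp5 (chr2:70474673-70474922, + strand): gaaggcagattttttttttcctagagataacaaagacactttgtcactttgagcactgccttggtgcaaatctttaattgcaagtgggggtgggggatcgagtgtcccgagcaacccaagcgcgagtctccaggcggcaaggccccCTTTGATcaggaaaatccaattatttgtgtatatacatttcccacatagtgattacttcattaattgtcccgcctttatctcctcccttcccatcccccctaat
Dkk1 (chr19:30549497-30549746, - strand): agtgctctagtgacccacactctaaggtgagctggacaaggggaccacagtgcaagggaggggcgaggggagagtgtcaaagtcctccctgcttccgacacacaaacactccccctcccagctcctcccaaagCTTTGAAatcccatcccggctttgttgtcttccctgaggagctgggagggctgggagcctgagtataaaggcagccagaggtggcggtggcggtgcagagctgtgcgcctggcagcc
Axin2 (chr11:108920099-108920348, + strand): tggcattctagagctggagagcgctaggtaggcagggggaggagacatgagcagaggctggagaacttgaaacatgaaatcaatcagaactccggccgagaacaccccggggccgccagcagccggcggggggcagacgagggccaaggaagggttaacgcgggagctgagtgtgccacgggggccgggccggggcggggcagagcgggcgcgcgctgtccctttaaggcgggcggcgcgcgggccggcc
Nkd2 (chr13:73847632-73847881, - strand): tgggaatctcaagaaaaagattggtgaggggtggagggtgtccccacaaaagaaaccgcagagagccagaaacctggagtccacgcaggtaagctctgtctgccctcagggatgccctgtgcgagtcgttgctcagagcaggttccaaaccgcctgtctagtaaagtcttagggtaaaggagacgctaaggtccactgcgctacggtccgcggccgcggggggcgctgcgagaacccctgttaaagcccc
The match in Sp5 began 104 bases before the gene start and that in Dkk1 117 bases before it. A match is a run of letters and not a shown binding site.

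Smarca4 and Ctnnb1, the partner of Tert and the transducer of the pathway, had mean differences of −0.01 and 0.00 in the mTERT line. Smarca4 gave 9.44, 9.38 and 9.63 in mTERT KO cultures 1 to 3, against 9.54, 9.39 and 9.56 in mTERT WT cultures. The groups overlapped, and the difference was −0.01 ± 0.08 (95% interval −0.19 to 0.17; limma, adjusted p = 1). Ctnnb1, beta-catenin itself, gave 10.85, 10.84 and 10.82 in mTERT KO cultures, against 10.80, 10.83 and 10.89 in mTERT WT cultures. These groups also overlapped, with an interval of −0.12 to 0.11.

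In the mTR line both genes lay slightly lower in the knockout. Smarca4 gave 9.41, 9.52 and 9.58 in mTR KO cultures, against 9.60, 9.65 and 9.58 in mTR WT cultures, a difference of −0.11 ± 0.08 (limma, adjusted p = 0.853). Ctnnb1 gave 10.80, 10.85 and 10.82 in mTR KO cultures, against 10.91, 10.94 and 10.92 in mTR WT cultures. Its groups did not overlap, the difference was −0.10 ± 0.05 and it did not pass (limma, adjusted p = 0.840). Every mTR WT culture lay above each of the other 9 cultures for Ctnnb1, whose range over all 12 was 0.14, narrower than that of nearly every other probe set (percentile 0.4).

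Of the destruction complex, Gsk3b, the kinase that phosphorylates beta-catenin, gave 9.71, 9.70 and 9.73 in mTERT KO cultures, against 9.83, 9.77 and 9.74 in mTERT WT cultures. The highest knockout value lay just under the lowest wild-type value, and the difference was −0.06 ± 0.06 (limma, adjusted p = 1). In the mTR line Gsk3b overlapped and differed by 0.07 ± 0.06. The scaffold Axin1 differed by 0.05 in mTERT KO and by 0.11 in mTR KO cultures, and the scaffold Apc by −0.04 and 0.01 in the same order.

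The feedback targets, which rise when beta-catenin signalling is high in many cell types, differed in both directions. Of the 6 that passed background in at least 1 array, 4 differed above 0 and 2 below in the mTERT comparison, and 2 above and 4 below in the mTR comparison, where 50.6% and 50.3% of all probe sets differed above 0. Axin2, the inducible relative of Axin1, gave 5.07, 4.90 and 4.79 in mTERT KO cultures, against 4.68, 4.84 and 5.05 in mTERT WT cultures. The knockout was higher in pair 1 by 0.39 and lower in pair 3 by 0.26, and the difference of the group means was 0.06 ± 0.11 (95% interval −0.17 to 0.30; limma, adjusted p = 1). Axin2 gave 4.91, 5.02 and 4.99 in mTR KO cultures, against 4.98, 5.21 and 5.02 in mTR WT cultures, and differed by −0.10 ± 0.11.

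Apcdd1, a membrane inhibitor of Wnt signalling, was the 1 gene of the set that read lower in the knockout at all 6 replicate numbers, although the numbers of the mTR line could not be taken as pairs. It gave 5.94, 5.81 and 5.40 in mTERT KO cultures, against 6.23, 5.89 and 5.57 in mTERT WT cultures. It gave 5.77, 5.92 and 6.15 in mTR KO cultures, against 6.10, 6.22 and 6.19 in mTR WT cultures. mTR KO culture 3 (6.15) lay above mTR WT culture 1 (6.10), so the match at all numbers depends on the numbering. The groups of both lines overlapped, and the differences were −0.18 ± 0.17 in mTERT KO and −0.23 ± 0.17 in mTR KO cultures (limma, adjusted p = 1 and 0.853). Such agreement over 6 numbers, all lower, was shared by 2.11% of all probe sets, and Apcdd1 was singled out after its values were seen.

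Among the other feedback genes Nkd1 and Nkd2, inhibitors that bind Dishevelled, differed by 0.07 ± 0.22 and 0.06 ± 0.23 in mTERT KO cultures. In mTR KO cultures Nkd1 differed by 0.02 ± 0.22 and Nkd2 by −0.21 ± 0.23. Znrf3, a ubiquitin ligase that removes Frizzled receptors, differed by 0.03 in mTERT KO and by −0.15 in mTR KO cultures. Dkk1, a secreted antagonist of Lrp co-receptors, differed by −0.09 and 0.08 in the same order. Notum, Rnf43, Dkk4 and Sp5 stayed under background, between 4.04 and 4.68 in every culture.

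Of the TCF and LEF factors, which carry beta-catenin to DNA, Lef1 varied most between cultures. It gave 4.97, 4.72 and 5.70 in mTERT KO cultures, against 5.21, 4.96 and 5.65 in mTERT WT cultures. Lef1 gave 4.66, 5.56 and 5.56 in mTR KO cultures, against 5.23, 5.91 and 5.56 in mTR WT cultures. Culture 3 was the highest in both mTERT groups and mTR KO culture 1 the lowest of all 12, and the groups overlapped in both lines.

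The Lef1 differences, −0.14 ± 0.31 in mTERT KO and −0.30 ± 0.31 in mTR KO cultures, did not pass (limma, adjusted p = 1 and 0.878). Without mTR KO culture 1 the mTR difference was −0.01. Tcf7l1, mostly a repressor, differed by 0.05 and −0.01 in mTERT KO and mTR KO cultures, and Tcf7l2 by 0.01 and 0.18.

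The nuclear cofactors read lower in mTR KO cultures for 3 of 4 genes. Bcl9, which links beta-catenin to Pygopus proteins, gave 7.98, 7.75 and 7.82 in mTR KO cultures, against 8.09, 8.05 and 8.0 in mTR WT cultures. Bcl9l, its relative, gave 7.95, 7.72 and 8.02 in mTR KO cultures, against 8.21, 8.13 and 8.07 in mTR WT cultures. Neither gene's groups overlapped, and the differences of −0.20 ± 0.12 and −0.24 ± 0.12 did not pass (limma, adjusted p = 0.840 and 0.839).

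In the mTERT line Bcl9 gave 7.88, 8.12 and 7.61 in the knockout, against 7.87, 8.0 and 7.71 in wild type, and Bcl9l gave 7.88, 8.0 and 7.81 in the knockout, against 8.14, 7.90 and 7.67 in wild type. Both overlapped, with differences of 0.02 ± 0.12 and −0.01 ± 0.12. The interaction of both knockouts did not pass for either gene (limma, adjusted p = 1). Pygo2, a chromatin reader of the same complex, differed by 0.00 and −0.03 in mTERT KO and mTR KO cultures, and Pygo1 by 0.10 and 0.11.

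At the cell surface Lgr5, a receptor for R-spondins and a marker of several stem cells, ranged more widely than any other gene of the set. It gave 7.74, 6.31 and 4.97 in mTERT KO cultures 1 to 3, against 6.71, 5.18 and 4.72 in mTERT WT cultures. Lgr5 gave 8.09, 6.85 and 6.59 in mTR KO cultures, against 7.64, 5.46 and 5.61 in mTR WT cultures. Its range over the 12 cultures was 3.37, a factor of 10.3, which placed it at percentile 99.8 of all probe sets.

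Culture 1 read highest for Lgr5 in all 4 groups, a pattern of 4.34% of all probe sets and of 4 genes of the set (with Tcf7l1, Pygo2 and Snai2). The knockout read higher than the wild type of the same number in all 6 instances, by 1.03, 1.13 and 0.25 in the mTERT line and by 0.45, 1.39 and 0.98 in the mTR line. Both readings behind the 0.25, 4.97 in mTERT KO 3 and 4.72 in mTERT WT 3, lay under the background level of their arrays (5.04 and 5.09). The mTR numbers could not be taken as pairs, and mTR KO cultures 2 (6.85) and 3 (6.59) lay below mTR WT culture 1 (7.64), so the count for that line depends on the numbering. All 6 higher were found in 2.11% of all probe sets, and the gene was singled out after its values were seen. The groups overlapped in both lines, and the differences were 0.81 ± 0.79 in mTERT KO and 0.94 ± 0.79 in mTR KO cultures (95% intervals −0.92 to 2.53 and −0.79 to 2.67; limma, adjusted p = 1 and 0.859).

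Because the mTERT cultures of a number resembled each other, Lgr5 was also read with the pairs as a block in the 6 mTERT arrays alone. The difference was then 0.81 ± 0.16 (limma, unadjusted p = 0.00122, adjusted p = 0.408), so the gene still did not pass. With few residual degrees of freedom, limma moderates the variance of a gene toward that of all probe sets. This error and p therefore do not measure the spread of the 3 pair differences (1.03, 1.13 and 0.25) alone. The unpaired difference of the mTERT line was 0.11 without mTERT KO culture 1 and 1.49 without mTERT KO culture 3. That of the mTR line was 0.48 without mTR KO culture 1 and 1.64 without mTR WT culture 1.

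**Figure D1:**
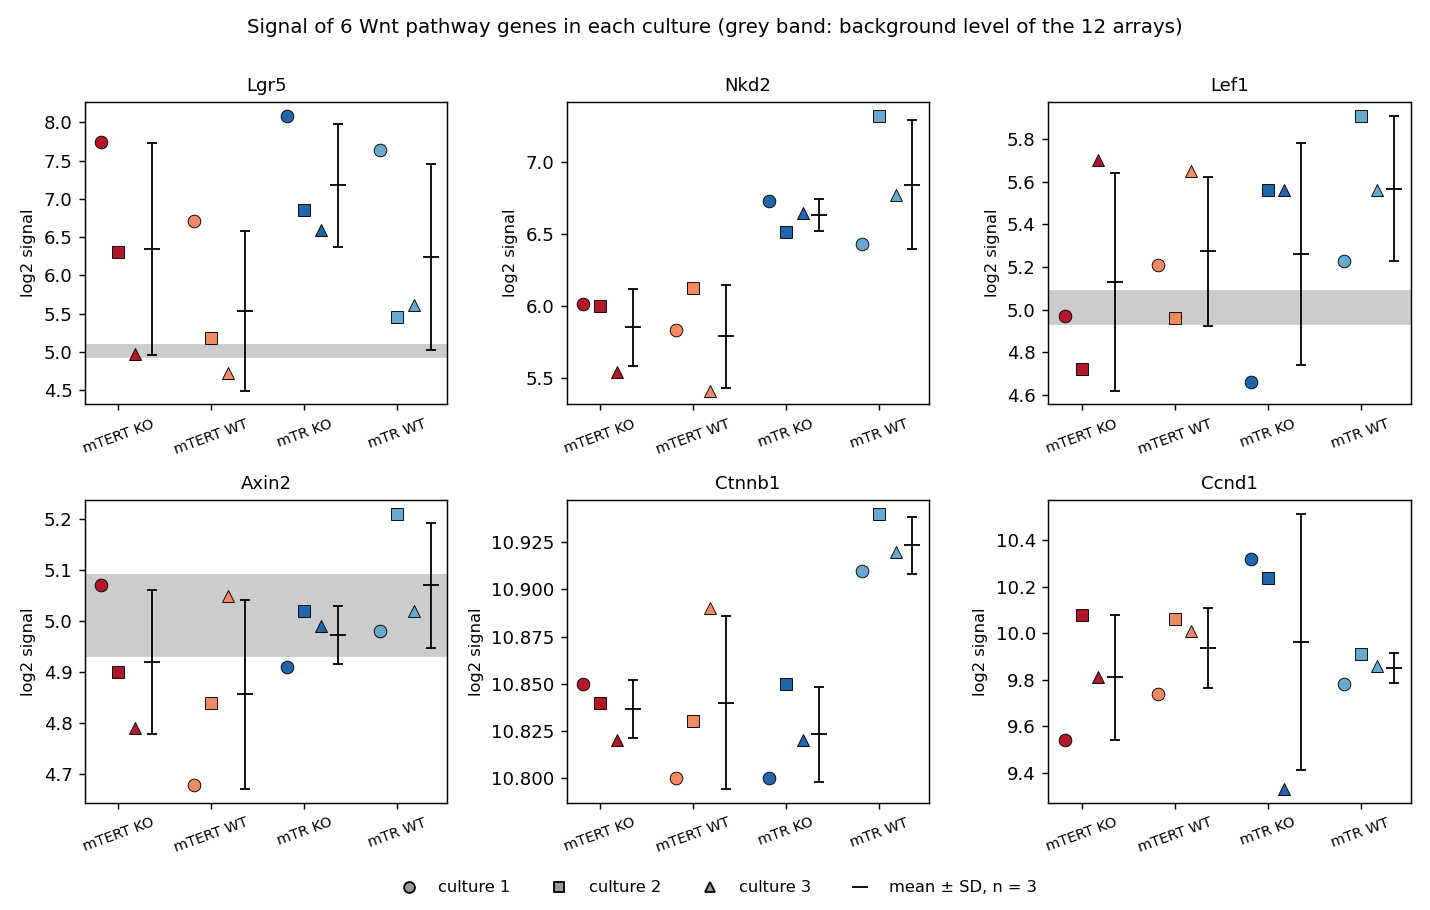
Log2 signal of Lgr5, Nkd2, Lef1, Axin2, Ctnnb1 and Ccnd1 (vertical axes) in each of 12 cultures by group (horizontal axes), with symbols for culture numbers and the group mean ± SD (n = 3) to the right. Vertical ranges differ between panels: Lgr5 covers 3.37 and Ctnnb1 0.14, and the grey band is the background level of the arrays (4.93 to 5.09).

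Lgr4, the relative of Lgr5 with wide expression, gave 8.38, 8.30 and 8.34 in mTERT KO cultures, against 8.69, 8.39 and 8.63 in mTERT WT cultures. The groups did not overlap, and the difference of −0.23 ± 0.18 did not pass (limma, adjusted p = 1). Lgr4 gave 9.26, 8.54 and 8.69 in mTR KO cultures, against 8.96, 8.53 and 9.0 in mTR WT cultures, with a difference of 0.00 ± 0.18. The difference between both effects, −0.23 ± 0.25, did not pass (limma, adjusted p = 1).

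Kremen2, a Dkk receptor, gave 4.93, 4.97 and 5.03 in mTR KO cultures, against 4.92, 4.77 and 4.91 in mTR WT cultures. The groups did not overlap but lay close to background, and the difference of 0.11 ± 0.11 did not pass (limma, adjusted p = 0.877). In mTERT KO cultures it differed by 0.00 ± 0.11. Its relative Kremen1 differed by −0.04 ± 0.11 in mTERT KO and by −0.21 ± 0.11 in mTR KO cultures. Porcn and Wls, which modify and export Wnt proteins, differed by 0.09 ± 0.08 and 0.04 in mTERT KO cultures. In mTR KO cultures Porcn differed by −0.15 ± 0.08. Porcn was the 1 gene of the set whose effect differed between the lines at an unadjusted p below 0.05 (0.24 ± 0.11, limma across all probe sets, unadjusted p = 0.0435, adjusted p = 1), where 3.34% of all probe sets did.

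The targets outside the feedback loop include growth genes of wide control. Ccnd1, the cyclin of the G1 phase, gave 9.54, 10.08 and 9.81 in mTERT KO cultures, against 9.74, 10.06 and 10.01 in mTERT WT cultures. The values were 10.32, 10.24 and 9.33 in mTR KO cultures, against 9.78, 9.91 and 9.86 in mTR WT cultures. The mTR KO cultures held both the highest and the lowest value of all 12.

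The Ccnd1 differences were −0.13 ± 0.23 in mTERT KO and 0.12 ± 0.23 in mTR KO cultures (95% intervals −0.63 to 0.37 and −0.38 to 0.61; limma, adjusted p = 1 and 0.940). Myc, a growth regulator, gave 9.10, 9.87 and 8.96 in mTR KO cultures, against 9.10, 9.05 and 9.14 in mTR WT cultures, so culture 2 stood apart. In mTERT KO cultures Myc differed by 0.01 ± 0.23.

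Cd44, the hyaluronan receptor, differed by −0.08 in mTERT KO and by 0.14 in mTR KO cultures. Jag1, a Notch ligand, differed by −0.16 and −0.01 and Snai2, a repressor of epithelial genes, by −0.02 and 0.01 in the same order. Cdx1 differed by −0.13 and −0.07. Tnfrsf19 gave 4.95, 4.87 and 4.86 in mTR KO cultures, against 4.80, 4.63 and 4.79 in mTR WT cultures, which did not overlap but lay almost wholly under background.

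Counted over the set, 0 of 36 genes passed in the mTERT comparison (limma, 5% false discovery rate), where 0.00347% of all probe sets did, that is Tert alone. None of the 36 had an unadjusted p below 0.05 there, against 1.92% of all probe sets. The groups did not overlap for Gsk3b and Lgr4, 5.56% of the set against 5.97% of all probe sets. The median difference of the set was −0.01, and that of all probe sets was 0.00.

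In the mTR comparison 0 of 36 genes passed (0% of all probe sets), and 0 had an unadjusted p below 0.05, against 5.82% of all probe sets. The groups did not overlap for Ctnnb1, Bcl9, Bcl9l, Kremen2 and Tnfrsf19, 13.9% of the set against 11.4% of all. The median difference was 0.01. The mean of both knockout effects gave 0 calls, 0 genes with an unadjusted p below 0.05 and 0 whose groups did not overlap, against 0%, 4.09% and 0.152% of all probe sets, and the difference between both effects gave 0 calls (0% of all).

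With the mTERT pairs as a block in the fit to all arrays, 0 of 36 genes had an unadjusted p below 0.05 in the mTERT comparison (2.36% of all probe sets), 3 in the mTR comparison (7.29%) and 7 between the wild types (8.27%). In the mTERT arrays alone the block gave 3, Apcdd1, Lgr4 and Lgr5, against 5.56% of all probe sets. None passed after adjustment in either fit. The mTR and wild-type comparisons are not paired, but the block takes the spread between mTERT pairs out of their error. Their errors in that fit are too small, so those counts are not read as results.

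How large a change the data leave room for differed by gene. Among the 29 genes above background in at least 3 arrays, the 95% interval of the difference stayed within 0.5 on either side of 0 for 19 in the mTERT and for 19 in the mTR comparison. It reached 1 for Lgr5 alone in each. These intervals are those of the fit without pairs, so in the mTERT line they include the spread between pairs. For genes near background, such as Axin2 and Dkk1, a narrow interval does not bound the change in RNA.

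**Figure D2:**
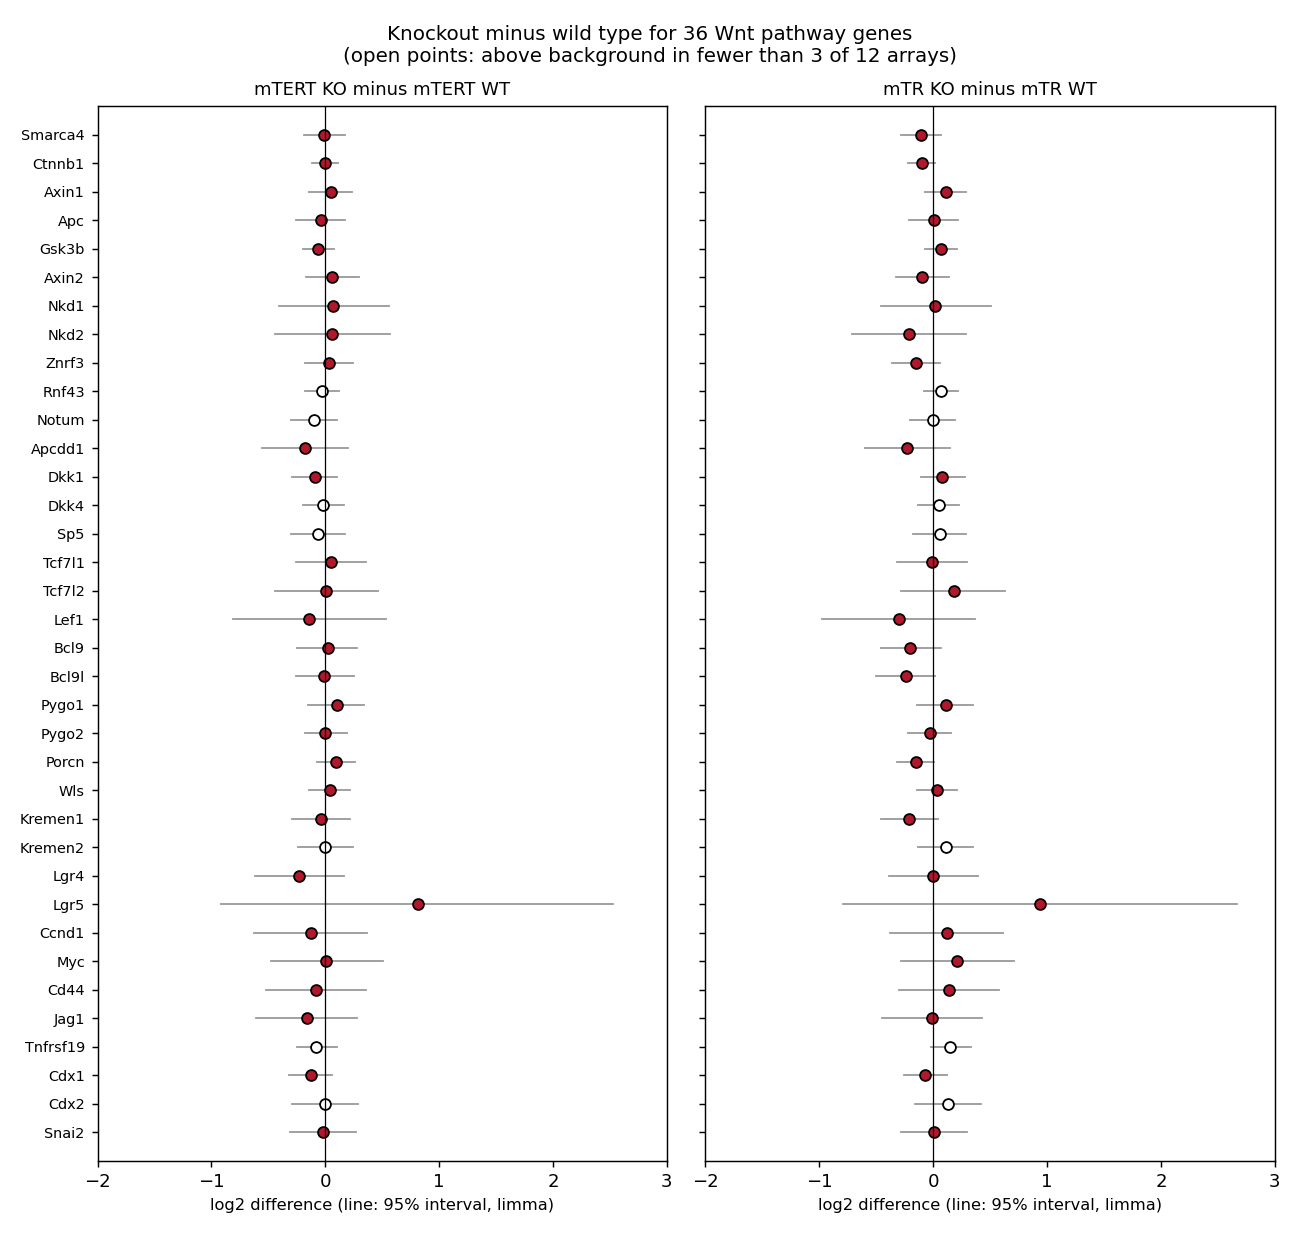
Log2 difference, knockout minus wild type, of 36 pathway genes (rows) in the mTERT line (left) and the mTR line (right). Lines are 95% intervals of the limma fit without pairs. Open points mark genes above background in fewer than 3 arrays. All 36 intervals cross 0 in both panels, and that of Lgr5 is the widest.

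More of the variation of the pathway genes within the mTERT line went with pair number than with genotype. Over the 6 mTERT cultures the pair number held a median of 71.4% of the sum of squares of a gene and genotype 5.1%, against 55.6% and 7.5% over all probe sets. Pair number has more degrees of freedom than genotype, so a larger share is due to it even without an effect. Of the 36 genes 31 passed background in at least 1 array, against 66.8% of all probe sets, so these medians also compare unlike signal levels. For 22 of 36 genes the pair number held over 50%, a level that the median of all probe sets (55.6%) also passed. It held 97.8% for Pygo2, 96.8% for Tcf7l2, 92.5% for Lef1, 91.8% for Myc and 84.8% for Smarca4. Genotype held its largest shares for Lgr4 (59.7%), Gsk3b (55.1%) and Porcn (52.1%), and for Axin2 neither held over 10% (2.5% pair, 5.2% genotype).

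Within the pairs the knockout differed from its wild type in 1 direction at all 3 numbers for 7 of the 36 genes, 19.4% against 25.1% of all probe sets. Upward these were Axin1, Porcn, Wls and Lgr5, the last with both cultures of number 3 under background, and downward Gsk3b, Apcdd1 and Lgr4.

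**Figure D3:**
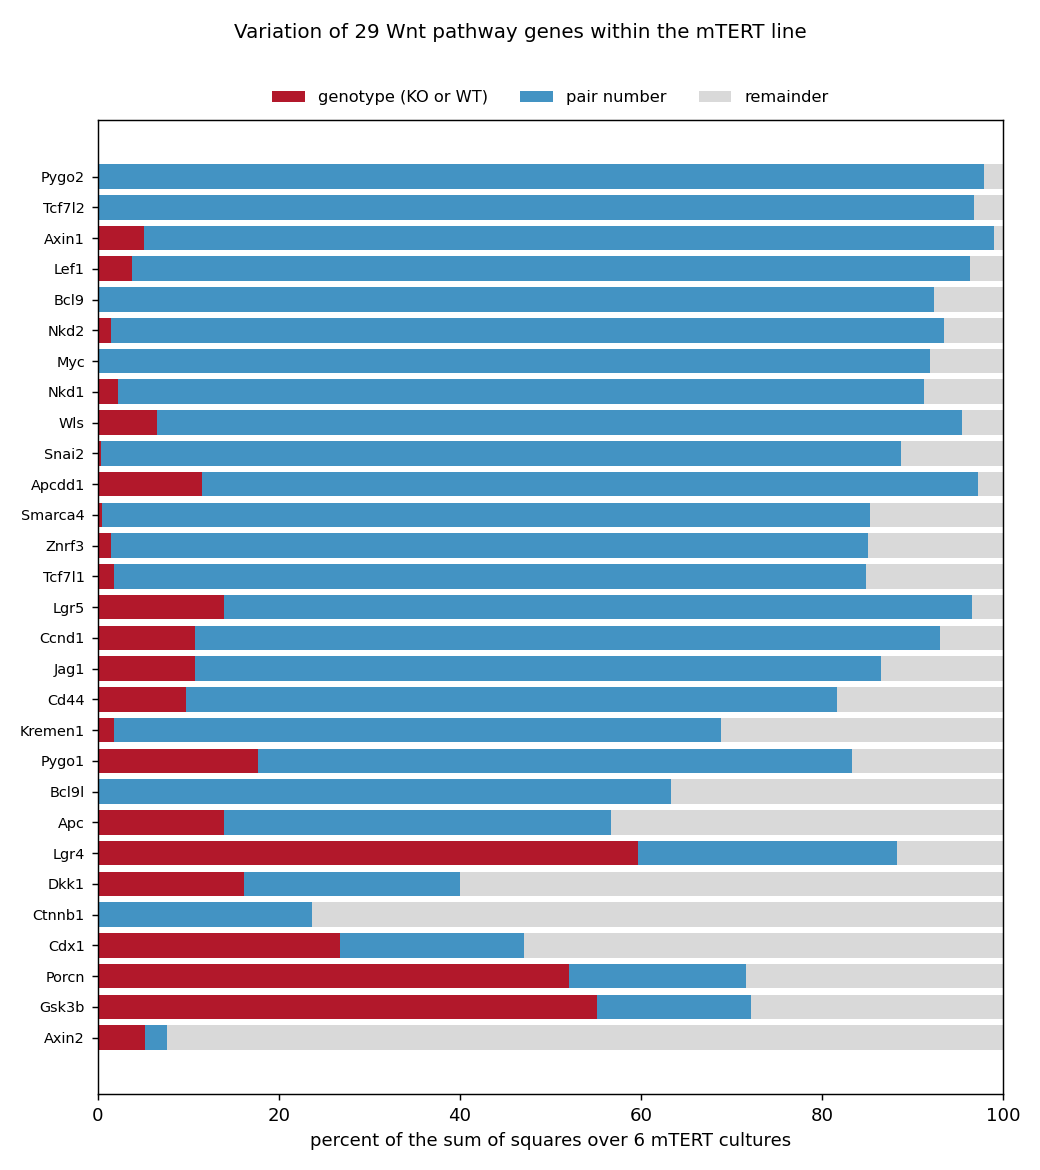
Share of the sum of squares over the 6 mTERT cultures (horizontal axis, percent) held by genotype, by pair number and by the remainder for 29 pathway genes above background in at least 3 arrays. Pair number holds the larger part in most rows, while Lgr4, Porcn and Gsk3b have over 50% with genotype.

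Set against each other, the wild types of both lines had the lowest unadjusted p of the set in Nkd2, the inhibitor of Dishevelled. It gave 5.83, 6.12 and 5.41 in mTERT WT cultures, against 6.43, 7.32 and 6.77 in mTR WT cultures. With the knockouts added, the 6 mTERT cultures lay between 5.41 and 6.12 and the 6 mTR cultures between 6.43 and 7.32, so the lines did not overlap. Nkd2 was the 1 such gene of the set, against 0.457% of all probe sets, a count made after the values were seen.

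The difference of Nkd2, mTERT WT minus mTR WT, was −1.05 ± 0.23, a 2.07-fold lower signal in mTERT WT cultures, with an unadjusted p of 0.000713 that did not pass (limma, adjusted p = 0.355). It lay between −1.26 and −0.81 as each array was left out. Nkd2 lies on chromosome 13 with Tert, and 3 protein-coding genes stand between them in the RefSeq table (Slc6a18, Slc6a19 and Slc12a7). The knockouts read likewise by line, at 6.01, 6.00 and 5.54 in mTERT KO cultures and 6.73, 6.51 and 6.64 in mTR KO cultures. Within the mTERT line the knockout differed from its wild type by 0.06 ± 0.23. Whether the place of Nkd2 near Tert has a part in its values was not tested.

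Porcn gave 5.34, 5.22 and 5.23 in mTERT WT cultures, against 5.43, 5.57 and 5.63 in mTR WT cultures, without overlap and with a difference of −0.28 ± 0.08 (limma, adjusted p = 0.507). Kremen1 differed by −0.25 ± 0.11 (limma, adjusted p = 0.730). These 3 genes were the ones with an unadjusted p below 0.05, 8.33% of the set against 6.78% of all probe sets, and 0 of 36 passed, against 0.0173% of all. The groups did not overlap for 8 genes, 22.2% against 13.1%: Smarca4, Ctnnb1, Nkd2, Bcl9 and Porcn lower, and Dkk1, Sp5 and Tnfrsf19 higher in mTERT WT cultures. Ctnnb1, Bcl9 and Tnfrsf19 were thus apart in both comparisons that use the mTR WT cultures, which share those arrays.

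Several lists of markers of position and of other cells moved with these contrasts. The 12 limb position genes were all lower in mTERT WT than in mTR WT cultures (median −0.73), and 16 of 16 macrophage markers were higher (median 0.80), with mean signals of 7.83 to 9.41 in mTERT WT and 6.77 to 8.80 in mTR WT cultures. In mTR KO cultures against mTR WT the macrophage markers were higher for 16 of 16 (median 0.75), the mitosis markers higher for 7 of 7 (median 0.26), the limb position genes lower for 10 of 12 (median −0.45) and the smooth muscle markers lower for 8 of 8 (median −0.40). In mTERT KO cultures against mTERT WT the limb position genes were higher for 11 of 12 (median 0.36), the macrophage markers lower for 16 of 16 (median −0.15) and the smooth muscle markers lower for 8 of 8 (median −0.19). The mitosis markers were higher in mTERT WT than in mTR WT cultures for 7 of 7 (median 0.3). Of 6 neural crest and Schwann markers 2 were higher and the others lower in mTERT WT than in mTR WT cultures (median −0.22). Their mean was 6.05, 6.00 and 6.30 in mTERT WT cultures 1 to 3, against 6.20, 7.18 and 6.03 in mTR WT cultures. The highest of these, mTR WT culture 2, was also highest for Nkd2 (7.32). No marker passed in either knockout comparison, and 1 limb position gene passed between the wild types (limma, 5% false discovery rate). The part of all these markers in the values of the pathway genes was not tested.

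The mitosis markers, 7 of 7 above background in all arrays, had their highest mean in culture 1 of every group, as Lgr5 did: 8.49 in mTERT KO, 8.40 in mTERT WT, 8.69 in mTR KO and 8.04 in mTR WT cultures. The mean of 11 fibroblast markers ranged from 10.86 to 11.66 in mTERT KO and from 10.72 to 11.47 in mTERT WT cultures, lowest in culture 3 of each, where Lgr5 was also lowest. In the mTR line they parted: the fibroblast mean was lowest in mTR KO culture 2 (11.05) and mTR WT culture 3 (11.07), and Lgr5 in mTR KO culture 3 (6.59) and mTR WT culture 2 (5.46). The spread of the fibroblast markers was uneven. In the mTERT comparison the standard error was 1.01 for Lum, 0.99 for Pdgfra and 0.49 for Dcn, and at most 0.20 for the others. Mean macrophage signal was lowest in culture 1 of mTERT KO (7.53), mTERT WT (7.83) and mTR WT (6.77), but highest there in mTR KO (9.63). The part of these markers in the Lgr5 values was not tested.

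**Figure D4:**
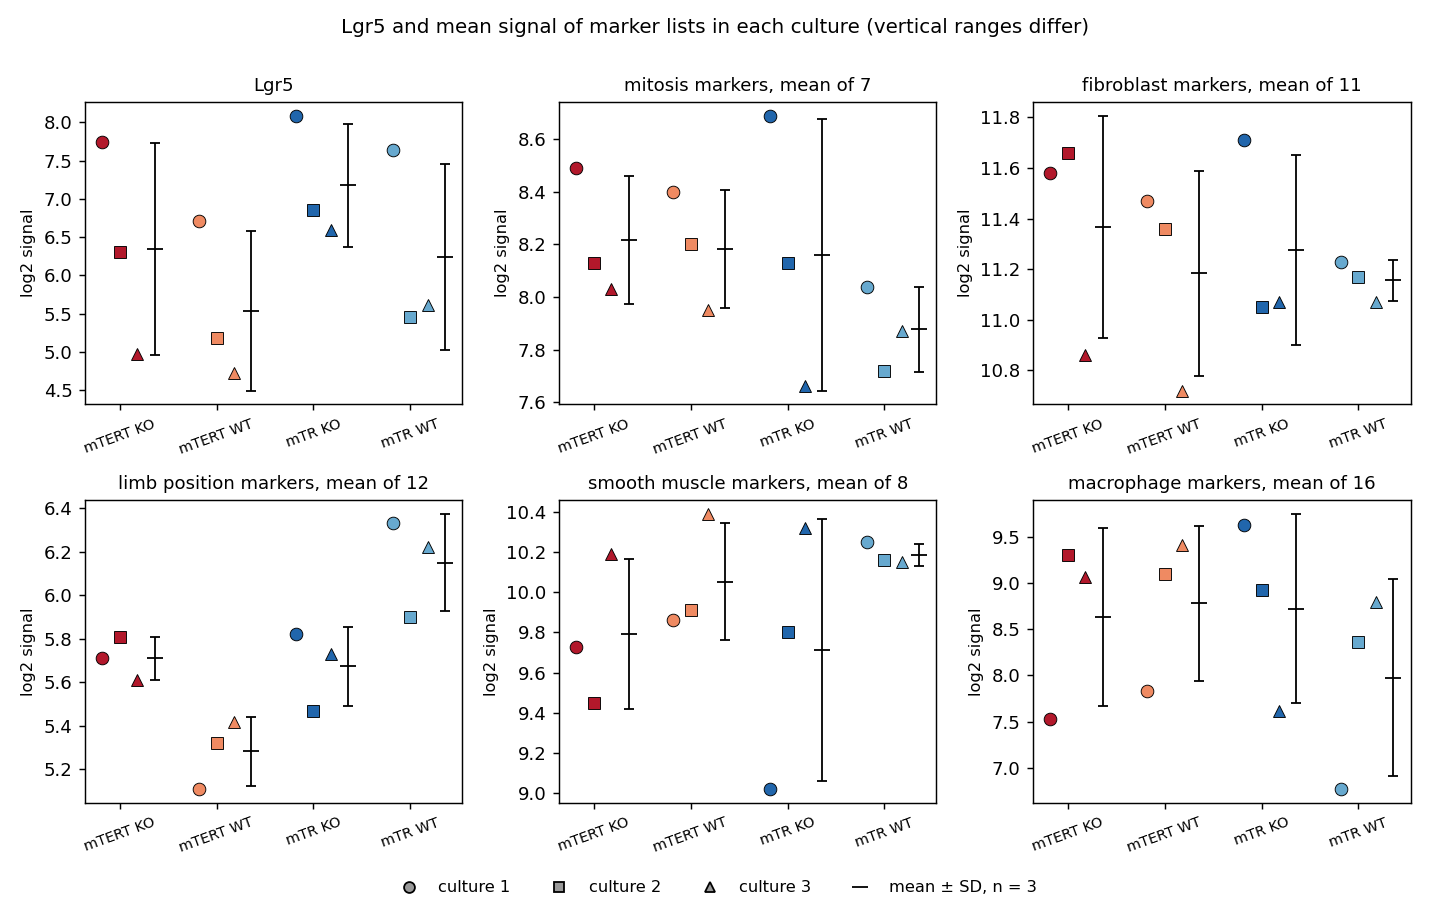
Log2 signal of Lgr5 and mean log2 signal of mitosis, fibroblast, limb position, smooth muscle and macrophage marker lists (vertical axes) in each culture by group (horizontal axes), with group mean ± SD (n = 3). Lgr5 and the mitosis mean are highest in culture 1 of each group, and the limb position mean lies higher in mTR WT (5.90 to 6.33) than in mTERT WT cultures (5.11 to 5.42).

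Other genes of the pathway, taken from 4 lists beside the 36, gave 0 calls in either knockout comparison. Of 19 genes of the destruction complex and Dishevelled level 11 differed below 0 in mTERT KO cultures (median 0.00) and 16 in mTR KO cultures (median −0.04). Dvl3, an adaptor that relays the receptor signal, gave 8.04, 8.02 and 8.29 in mTR KO cultures, against 8.26, 8.41 and 8.41 in mTR WT cultures (−0.24 ± 0.08, limma, adjusted p = 0.839). Frat1, a Gsk3 binding protein, differed by −0.18 ± 0.08 in mTR KO and by 0.12 ± 0.08 in mTERT KO cultures, and its relative Frat2 by −0.15 in mTERT KO cultures, under background throughout.

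Of 16 Wnt receptors and co-receptors 15 differed below 0 in mTR KO cultures, median −0.11, and 7 of 16 in mTERT KO cultures, median 0.01; these shares were not compared by a test. Fzd8, a Frizzled receptor, gave 8.04, 7.27 and 7.58 in mTR KO cultures, against 8.37, 7.75 and 8.25 in mTR WT cultures (−0.49 ± 0.20, limma, adjusted p = 0.839), and Fzd5 differed by −0.28 ± 0.14. In mTERT KO cultures Ror1, a receptor of non-canonical Wnt signalling, gave 6.27, 6.64 and 6.28, against 6.59, 7.10 and 6.98 in mTERT WT cultures (−0.49 ± 0.20, adjusted p = 1), and Fzd7 differed by −0.22 ± 0.19. The 6 mTERT cultures read 7.38 to 7.75 for Fzd8, and no mTR WT culture read below 7.75.

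Of 24 nuclear cofactors, including subunits of the Smarca4 complex, 13 differed below 0 in mTERT KO and 16 in mTR KO cultures. The smallest p belonged to Ctbp2 (−0.13 ± 0.07) and Ctnnbip1 (−0.12 ± 0.08) in mTERT KO cultures, and to Tle1 (−0.32 ± 0.16), a Groucho corepressor, and Ctbp1 (0.20 ± 0.11) in mTR KO cultures. For Ctbp1, a corepressor, mTR WT culture 2 read 9.42 and the other 11 cultures 9.91 to 9.97. None passed (limma, adjusted p = 1 in the mTERT and 0.839 and 0.840 in the mTR comparison).

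Of 37 other published beta-catenin targets 19 differed below 0 in mTERT KO and 20 in mTR KO cultures. Fgf9, a growth factor, gave 5.78, 5.96 and 7.0 in mTR KO cultures, against 7.67, 6.59 and 7.58 in mTR WT cultures (−1.03 ± 0.32, limma, adjusted p = 0.839). The mTERT cultures read 6.00 to 6.35, below every mTR WT culture. Dkk3, a secreted Dickkopf relative, gave 9.64, 9.13 and 9.47 in mTR KO cultures, against 10.07, 9.71 and 10.53 in mTR WT cultures (−0.69 ± 0.22, adjusted p = 0.839). In mTERT KO cultures the smallest p were those of Tbx3 (−0.28 ± 0.13) and Sox9 (0.36 ± 0.20), transcription factors of limb and cartilage, and neither passed (adjusted p = 1).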

How the data were processed

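The deposited table gives, for 12 cultures hybridised to Affymetrix Mouse Gene 1.0 ST, a log2 signal per probe set that the authors had already scaled alike across arrays. Among the programs listed in the submitters' processing notes are PLIER, Expression Console by Affymetrix and GCOS 1.4. What each did, the normalization and the genome build are not given in the sources used here. Quantiles of the columns differed by at most 0.084 between arrays, and arrays correlated at 0.984 to 0.997, so the values were used as deposited. The number of arrays limits the precision.

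Genes and lists were chosen with earlier results of these data known. A linear model of 4 group means was fitted with limma 3.58.1 in R 4.3.3 (8 residual and 3.14 prior degrees of freedom) to all probe sets without a filter and tested on simulated data. p-values measure the spread between cultures, with the variance of each probe set moderated by limma toward that of all probe sets. All members are named. Array values are given for genes with groups apart or an unadjusted p under 0.05 in a knockout comparison that passed background in at least 3 arrays and for Smarca4, Ctnnb1, Axin2 and Ccnd1, with Lgr5, Nkd2, Lef1, Apcdd1, Porcn, Myc, Kremen2 and Tnfrsf19 added after their values were seen. From each list the 2 genes of smallest p are named. The lists were described by counts, and cell markers by their mean.

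Pairing by replicate number was checked on 14427 brighter probe sets. Deviations from the group mean of same-numbered mTERT cultures correlated at 0.674, 0.733 and 0.790, and the design text describes littermates, so the numbers were taken as pairs there. In the mTR line they correlated at −0.156, 0.289 and −0.377 and were not taken as pairs. Alternatives were a replicate block, normalizations, filters on dim probe sets, variance models, subsets of arrays and probe sets, and leaving out each array.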

Additional observations from a re-analysis of the deposited data

How the results depend on the processing

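No gene of the Wnt set passed in any of the 5 contrasts under any alternative run, and the smallest adjusted p was 0.408 in the mTERT comparison, 0.327 in the mTR comparison, 0.915 for the difference and 0.496 for the mean of both effects, and 0.108 for the wild types. The sign of a gene's difference changed in 68 of 845 values of the mTERT comparison and in 38 of 809 of the mTR comparison. The number of all probe sets that passed moved with the settings. In the mTERT comparison it was 1, and 0 with the numbers of both lines as a replicate block, with a replicate block in the mTERT arrays alone, after quantile normalization and with only the arrays compared; it was 0 to 2 with 1 array left out. The Tert difference was −0.79 with both of these blocks and with only the arrays compared, and −0.80 after quantile normalization, without a call (adjusted p = 0.134, 0.101, 1 and 0.0504). With 1 array left out it lay between −0.87 and −0.74, and of these 12 fits 2 called it, those without mTERT KO 1 and without mTERT WT 3. With 1 array left out, 0 to 3 probe sets passed in the mTR comparison (3 without mTR WT 2) and 0 to 1 for the mean of both effects. Between the wild types 5 passed, against 17 with the mTERT pairs as a replicate block, 44 with the numbers of both lines as a block, 0 after quantile normalization, 9 with array weights, 1 with only the arrays compared, and 0 to 11 with 1 array left out. The wild types of the 2 lines are not paired, and both blocks take spread between cultures out of the error of their comparison. The block on both lines also uses mTR numbers that were not taken as pairs. The 17 and 44 are therefore not read as further differences between the lines. The block changed no call of a pathway gene. The choice between several probe sets of a gene was not run, because each gene had 1. The causes were not tested. Signals near background limit what can be seen for Axin2, Dkk1, Sp5, Notum, Rnf43, Dkk4, Cdx2, Kremen2 and Tnfrsf19. They do so too for Lef1, Lgr5 and Pygo1 in the cultures where these genes did not pass the level.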
